A study of Mus musculus with 12 samples.

Results

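Dasatinib plus quercetin, abbreviated D+Q, was compared with its vehicle in the quadriceps, the large thigh muscle, of old mice. The comparison took the 4 libraries labelled D+Q and the 4 labelled old vehicle, which are 8 of the 12 libraries of the study. Both groups came from C57BL/6 mice that were 24 months old. They had been gavaged from 20 months of age on 3 days in every 2 weeks, either with dasatinib at 5 mg/kg together with quercetin at 50 mg/kg or with the vehicle of ethanol, polyethylene glycol and Phosal alone. The 4 remaining libraries came from young C57BL/6 mice of 6 months, for which no gavage is stated. They entered the fit through the shared estimate of the spread, and their values are given beside the old groups for orientation. Both drugs were always given together, so the effect of either alone was not measured. No label ties a library to a mouse of its own, so the p-values reflect variation among the libraries, which may be partly technical. Polyadenylated RNA was sequenced from stranded libraries of whole muscle.

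Senescent cells have left the cell cycle for good, often through the inhibitors p16 and p21, and secrete cytokines, proteases and growth factors. They survive through anti-apoptotic signals, and drugs that interrupt those signals and so remove such cells are called senolytics. Dasatinib inhibits the Abl and Src families of tyrosine kinases and several receptor tyrosine kinases, and quercetin is a plant flavonoid that acts on many kinases. In ageing muscle some fibres lose contact with their motor nerve. Denervated fibres switch on genes that are otherwise silent outside the synapse, among them the subunits of the acetylcholine receptor, the myogenic factor myogenin and the stress gene Gadd45a.

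Library totals ran from 43152512 to 45901603 reads in D+Q and from 38109111 to 49792488 reads in old vehicle (exact permutation test over the 8 libraries, two-sided p = 0.886, where the smallest possible p is 0.0286). At these depths 3 reads correspond to 0.0561 to 0.0813 CPM, counts scaled to equal library size. All 12 genes that define muscle fibres, such as Acta1, Ckm and Ttn, were expressed in every library, with a summed level of 47977 to 76397 CPM in D+Q and 48381 to 66789 CPM in old vehicle. D+Q replicate 4 stood apart from the other libraries. On the first principal component of the 8 old libraries, which held 37.3% of the variance, the D+Q libraries had scores of -35.0, 2.73, -19.7 and 44.3 and the old vehicle libraries had 20.1, 19.4, -17.1 and -14.7. The highest score was that of D+Q replicate 4, and both groups had libraries on either side of 0. Values without this library are given beside many, but not all, of the results that it moved.

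No gene passed the threshold of the main test between D+Q and old vehicle muscle, and most fold changes were small. The smallest p-values belonged to genes lower in D+Q, led by Gadd45a, the DNA-binding protein gene Nabp1, the decoy receptor gene Tnfrsf23 and the transcription factor gene Runx1. Among genes higher in D+Q, Pla2g5 and Plekhf1, a secreted phospholipase and an endosomal protein, came first. After Benjamini-Hochberg adjustment of the quasi-likelihood test of edgeR, 0 of 16146 tested genes were called (0%). An unadjusted p under 0.05 was reached by 349 genes (2.16%), a share below the 5% that evenly spread p-values would give, of which 187 were lower (1.16%) and 162 higher (1%) in D+Q. Limma-voom also called 0 genes, with 370 at an unadjusted p under 0.05. DESeq2 called 11 genes (0.0682% of the 16138 to which it gave an adjusted p), 8 of them lower and 3 higher in D+Q. Libraries of the groups did not overlap for 181 genes lower in D+Q (1.12%) and 170 genes higher in D+Q (1.05%). Of the 70 ways to assign the 8 libraries to groups of equal size, 1 separates a gene in each direction. Both shares are below 1 in 70, so non-overlap was no more frequent than random assignment would give. Non-overlap of a single gene is therefore described below and is not by itself evidence of a difference. With plain library totals in place of scaled ones the counts of genes without overlap were 293 lower and 98 higher. The log2 fold change of D+Q over old vehicle was negative for 7588 genes (47%), and its median over all tested genes was 0.010. At a mean log2 CPM of 1 or more, 16 of 11957 genes were over 2-fold lower and 18 over 2-fold higher in D+Q.

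**Figure D1:**
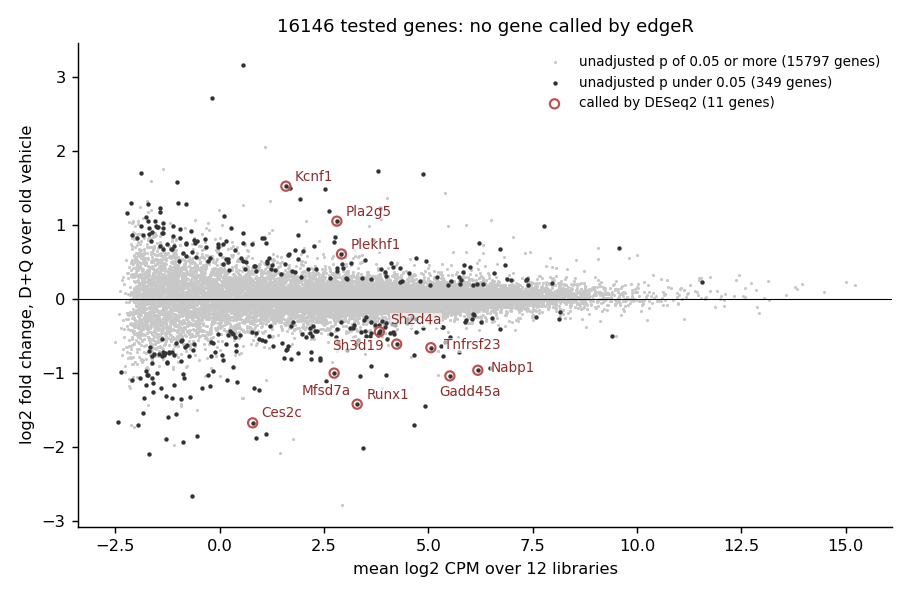
Log2 fold change of D+Q over old vehicle (vertical axis) against mean log2 CPM (horizontal axis) for the 16146 tested genes, each a point, with the 11 genes that DESeq2 called marked. The cloud centres near 0, and the marked genes comprise 8 below and 3 above that line.

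For each of the 11 genes called by DESeq2, all D+Q libraries lay on one side of all old vehicle libraries. Gadd45a, on chromosome 6 from 67035096 to 67037457 of mm10, encodes a stress protein of growth arrest and DNA repair that denervated muscle also induces. It had 44.9, 37, 31.6 and 41.2 CPM in the D+Q libraries and 60.6, 86.8, 72.7 and 98.5 CPM in the old vehicle libraries, given for replicates 1 to 4 here and below. The highest D+Q library was below the lowest old vehicle library, and the mean was 2.06-fold lower (log2 fold change -1.04 ± 0.15 SE, edgeR adjusted p = 0.221, DESeq2 adjusted p = 1.66e-05). In young muscle Gadd45a stood at 18.8 ± 1.43 CPM (SD, n = 4). Young and D+Q levels are both read against the same old vehicle libraries, so a D+Q level on the side of young is no separate observation. Because whole tissue was sequenced, fewer cells that express a gene and less RNA per cell cannot be told apart, here and for the genes that follow.

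Nabp1, which binds single-stranded DNA, lies on chromosome 1 from 51465862 to 51478425. Its levels were 69.3, 56.1, 40.2 and 68.4 CPM in the D+Q libraries and 91, 105, 125 and 135 CPM in the old vehicle libraries (log2 fold change -0.97 ± 0.18 SE, DESeq2 adjusted p = 0.00628). D+Q replicate 3 was lowest, and the other D+Q libraries were still below every old vehicle library. Tnfrsf23, a decoy receptor of the TNF receptor family, had 32.6, 31.5, 28.6 and 29.7 CPM in the D+Q libraries and 39.1, 46.7, 53.2 and 54.4 CPM in the old vehicle libraries. The D+Q libraries lay within a narrow range of each other, and the log2 fold change was -0.66 ± 0.12 SE. Ces2c, a carboxylesterase gene expressed at a low level, had 1.96, 1.06, 1.04 and 0.555 CPM in the D+Q libraries and 2.24, 4.41, 4.39 and 3.72 CPM in the old vehicle libraries and a log2 fold change of -1.68 ± 0.35 SE. Runx1, also lower, is described with the denervation genes. Of the remaining calls on the lower side, Mfsd7a, of the major facilitator transporter family, had a log2 fold change of -1.0 ± 0.20 SE, the adaptor gene Sh3d19 -0.61 ± 0.13 SE and the adaptor gene Sh2d4a -0.44 ± 0.10 SE.

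On the higher side, Pla2g5, a phospholipase A2 on chromosome 4 from 138799244 to 138863482, had 9.31, 5.46, 8.78 and 9.69 CPM in the D+Q libraries and 3.01, 4.0, 4.47 and 4.58 CPM in the old vehicle libraries. Its D+Q libraries all lay above old vehicle, replicate 2 by the smallest margin, with a log2 fold change of 1.05 ± 0.24 SE and a young level of 8.54 ± 2.69 CPM. Plekhf1, which encodes a protein of endosomes and lysosomes, had 9.24, 7.97, 9.39 and 9.45 CPM in the D+Q libraries and 5.57, 5.06, 6.23 and 6.8 CPM in the old vehicle libraries. The separation was narrow and the log2 fold change was 0.61 ± 0.14 SE. Kcnf1, a modulatory potassium channel subunit, had 2.1, 1.73, 3.39 and 6.01 CPM in the D+Q libraries and 1.38, 0.912, 1.11 and 1.18 CPM in the old vehicle libraries, with D+Q replicate 4 the highest and a log2 fold change of 1.52 ± 0.36 SE. Without D+Q replicate 4 the log2 fold changes were 0.97 for Pla2g5, 0.58 for Plekhf1 and 1.06 for Kcnf1.

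Many genes that denervated fibres raise were lower on average in D+Q muscle, with negative values for most acetylcholine receptor subunits, regulators and channels. Genes that build the synapse had a median near 0, with values on both sides of it. Of 25 genes in the denervation and neuromuscular junction list, 17 had a negative and 8 a positive log2 fold change, with a median of -0.18 against 0.010 over all genes tested. An unadjusted p under 0.05 was reached by 9 of the 25, all lower in D+Q, where 1.16% of all tested genes did so, and none passed over all genes. For 4 of the 25 the libraries did not overlap, against 1.12% of all tested genes. The list was chosen with earlier results of these data known, and members share regulators, so the 25 genes are not separate observations. Leaving out D+Q replicate 4 gave 16 negative genes, 8 of them with an unadjusted p under 0.05, and a list median of -0.12. Without old vehicle replicate 3 there were 15 negative genes and the median was -0.097. The mean deviation of the list on the log2 scale from the average of the 8 libraries was -0.078, -0.12, -0.049 and -0.57 in D+Q and -0.074, 0.42, 0.17 and 0.30 in old vehicle. D+Q replicate 4 was the lowest, and D+Q replicates 1 and 3 lay close to old vehicle replicate 1.

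The muscle acetylcholine receptor is a ring of subunits that opens when nerve-released acetylcholine binds. The fetal form holds the gamma subunit, which the epsilon subunit replaces after birth and which returns when the nerve is lost. Promoters of the subunit genes are known to hold E-boxes, the sites of myogenic factors such as myogenin. RefSeq promoters, read on GRCm38.p6 as the 150 bases before each gene's start and written on the gene's own strand, are shown for 3 subunits and for myogenin because these genes are described next. Capitals mark the E-box letters CANNTG, searched on both strands, on which the motif reads the same. The windows lie at chr2:73580339-73580488 (minus strand) for Chrna1, at chr11:69795938-69796087 (minus strand) for Chrnb1, at chr11:70619195-70619344 (minus strand) for Chrne and at chr1:134289854-134290003 (plus strand) for Myog.
Chrna1: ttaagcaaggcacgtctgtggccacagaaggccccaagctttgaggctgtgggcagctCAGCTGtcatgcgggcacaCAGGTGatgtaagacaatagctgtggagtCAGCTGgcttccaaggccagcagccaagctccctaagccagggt
Chrnb1: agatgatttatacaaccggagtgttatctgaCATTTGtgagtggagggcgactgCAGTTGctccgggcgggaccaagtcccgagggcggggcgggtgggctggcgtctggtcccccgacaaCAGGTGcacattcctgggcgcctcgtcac
Chrne: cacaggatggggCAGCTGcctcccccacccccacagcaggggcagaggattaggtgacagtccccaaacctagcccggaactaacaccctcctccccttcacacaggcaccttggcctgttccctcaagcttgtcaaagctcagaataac
Myog: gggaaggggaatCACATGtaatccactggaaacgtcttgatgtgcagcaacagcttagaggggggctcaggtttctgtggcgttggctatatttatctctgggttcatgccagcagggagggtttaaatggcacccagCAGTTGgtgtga
These windows held 3 E-boxes in Chrna1, 3 in Chrnb1, 1 in Chrne and 2 in Myog. At least 1 E-box was present in 39.1% of the 10849 tested genes with such a window, in 4 of the 4 receptor subunits with one, in 3 of 6 synapse organizers and in 6 of 8 denervation-responsive regulators and channels. A match describes these letters and does not show that a factor binds there.

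All 5 receptor subunit genes had a log2 fold change at or below 0, with a median of -0.78, and 4 of them had an unadjusted p under 0.05. Chrna1, the alpha subunit that binds acetylcholine, had 46.9, 38.8, 43.6 and 21.2 CPM in the D+Q libraries and 58.1, 81.4, 60.7 and 57.4 CPM in the old vehicle libraries. Every D+Q library was below every old vehicle library, with D+Q replicate 4 the lowest and old vehicle replicate 2 the highest (log2 fold change -0.78 ± 0.22 SE, edgeR unadjusted p = 0.00444). Chrnd, the delta subunit, likewise did not overlap, with 8.67, 10.3, 10.2 and 4.95 CPM in the D+Q libraries and 13.9, 27.6, 12.7 and 16.1 CPM in the old vehicle libraries and a log2 fold change of -1.05 ± 0.31 SE. Chrng, the fetal gamma subunit, had 1.96, 1.21, 0.988 and 0.222 CPM in the D+Q libraries and 4.39, 8.56, 1.46 and 1.65 CPM in the old vehicle libraries. Old vehicle replicates 1 and 2 were well above the other libraries, old vehicle replicates 3 and 4 lay within the range of D+Q, and the log2 fold change was -1.88 ± 0.67 SE. The beta subunit Chrnb1 had 74 ± 9.58 CPM in D+Q, against 89 ± 7.84 CPM in old vehicle (SD, n = 4 each) and a log2 fold change of -0.27 ± 0.12 SE. Chrne, the adult epsilon subunit, had 18 ± 3.24 CPM in D+Q, against 18 ± 3.68 CPM in old vehicle (SD, n = 4 each), which gave a log2 fold change of -0.0021 ± 0.21 SE. When D+Q replicate 4 was left out, the log2 fold change was -0.58 for Chrna1, -0.86 for Chrnd and -1.54 for Chrng. Leaving out old vehicle replicate 2 moved Chrnd and Chrng further towards 0, to -0.74 and -1.21. In young muscle Chrna1 stood at 19.5 ± 3.68 CPM and Chrng at 0.113 ± 0.119 CPM (SD, n = 4).

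Regulators and channels of denervated muscle had a negative log2 fold change for 10 of 11 genes, with a median of -0.27 and 5 at an unadjusted p under 0.05. Runx1, a transcription factor that denervation induces in fibres, had 6.83, 8.75, 5.93 and 7.28 CPM in the D+Q libraries and 14.3, 28.5, 13.6 and 20.8 CPM in the old vehicle libraries. The groups did not overlap, and the mean was 2.68-fold lower (log2 fold change -1.42 ± 0.28 SE, DESeq2 adjusted p = 0.00628). Its young level was 2.72 ± 0.887 CPM (SD, n = 4). Myogenin, encoded by Myog, is the myogenic factor that links loss of nerve activity to receptor genes, and it had 14.1, 18, 14.6 and 9.36 CPM in the D+Q libraries and 19.6, 43.3, 14 and 37.3 CPM in the old vehicle libraries. Old vehicle replicate 3 lay within the D+Q range, and the log2 fold change was -1.03 ± 0.33 SE. Without old vehicle replicate 2, the highest library for both genes, the log2 fold changes were -1.17 for Runx1 and -0.76 for Myog. The potassium channel Kcnn3, which appears in denervated fibres, had 2.55 ± 0.775 CPM in D+Q, against 4.43 ± 0.928 CPM in old vehicle (SD, n = 4 each) with a log2 fold change of -0.80 ± 0.25 SE. The adhesion molecule gene Ncam1 had -0.27 ± 0.24 SE, the deacetylase gene Hdac4 -0.18 ± 0.14 SE and sarcolipin, Sln, -0.18 ± 0.45 SE, each with an unadjusted p above 0.05.

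Synapse organizers gave a different set of values. Of 9 such genes 7 had a positive and 2 a negative log2 fold change, the median was 0.043 and none had an unadjusted p under 0.05. Rapsn, which clusters the receptor, had a log2 fold change of 0.24 ± 0.35 SE, the nerve-derived organizer Agrn 0.11 ± 0.19 SE, its receptor Lrp4 0.013 ± 0.14 SE, and Dok7, the activator of the kinase MuSK, 0.0041 ± 0.28 SE. The kinase itself, encoded by Musk, had -0.33 ± 0.20 SE. Whether receptor subunits and organizers differed from each other was not tested.

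**Figure D2:**
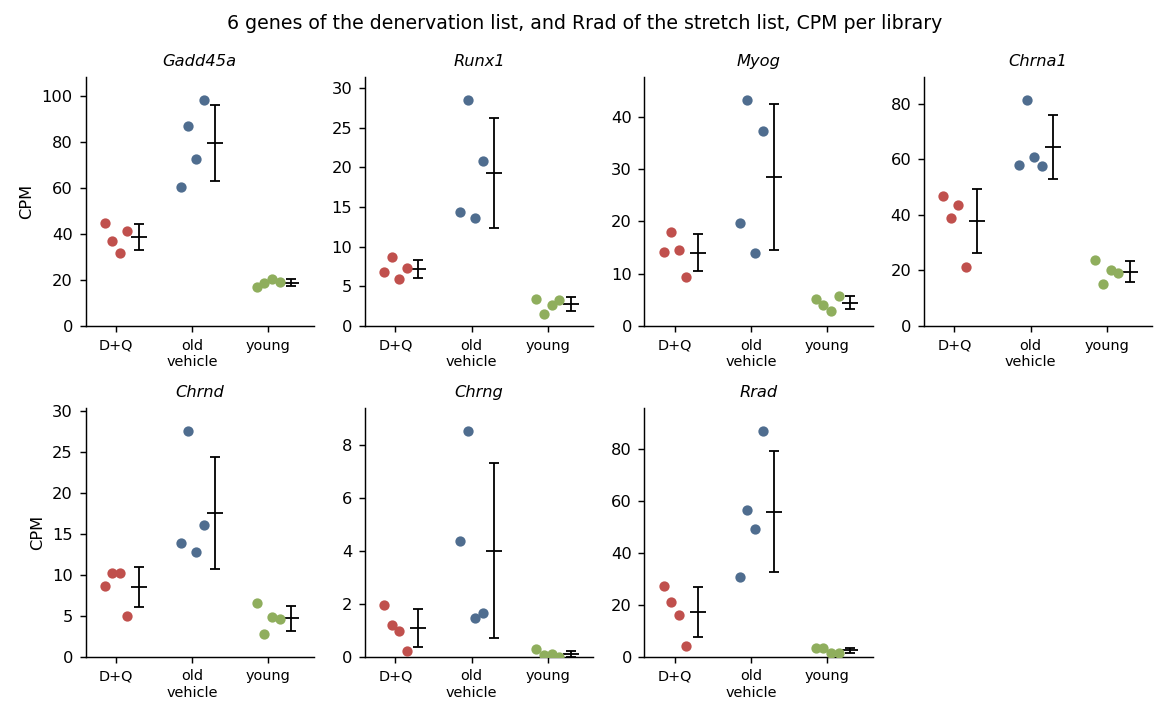
CPM on a linear axis in each of the 4 D+Q, 4 old vehicle and 4 young libraries for 6 genes of the denervation list and for Rrad of the stretch list, with 1 panel per gene, points for libraries and bars for the mean ± SD. For Chrna1, Chrnd, Gadd45a, Runx1 and Rrad every D+Q point lies below every old vehicle point.

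Genes that respond to stretch and sarcomere stress held 3 members with large negative values in D+Q, Krt18, Rrad and Ankrd1. Rrad, a Ras-related GTPase that restrains calcium channels, had 27.2, 21.1, 16.1 and 4.3 CPM in the D+Q libraries and 30.7, 56.4, 49.2 and 87 CPM in the old vehicle libraries. No library overlapped, and D+Q replicate 4 was far below the others (log2 fold change -1.7 ± 0.48 SE, and -1.38 without that library). Ankrd1, an ankyrin repeat protein of the stretched sarcomere, had 106, 131, 64.5 and 44.7 CPM in the D+Q libraries and 104, 233, 147 and 180.0 CPM in the old vehicle libraries, with old vehicle replicate 1 below D+Q replicates 1 and 2, and a log2 fold change of -0.94 ± 0.30 SE. Krt18, a keratin that pairs with Krt8, had 11.3, 6.69, 4.89 and 2.75 CPM in the D+Q libraries and 7.16, 14.1, 51.6 and 30.8 CPM in the old vehicle libraries and a log2 fold change of -2.01 ± 0.54 SE, and its old vehicle libraries spanned several-fold. Over the list, 8 of 12 genes were negative with a median of -0.16, 3 had an unadjusted p under 0.05, all lower in D+Q, against 1.16% of all tested genes, and the libraries of 1 did not overlap, against 1.12%. Leaving out D+Q replicate 4, the list had 7 negative members and a median of -0.034, and without old vehicle replicate 3 the median was 0.0096. The heart and muscle LIM protein gene Csrp3 (-0.15 ± 0.48 SE), Ankrd2 (-0.017 ± 0.44 SE) and filamin C, Flnc (0.014 ± 0.24 SE), lay near 0.

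Regulators of cell cycle arrest showed no shared direction. Of 18 tested genes 9 were positive, 9 were negative and the median was 0.0011. Without D+Q replicate 1, 14 were negative and the median was -0.10. Without D+Q replicate 4, 10 were negative and the median was -0.024. The 6 tested inhibitors of cyclin-dependent kinases were 3 positive and 3 negative. Cdkn1a, which encodes p21, had 107, 135, 127 and 204 CPM in the D+Q libraries and 180.2, 241, 138 and 209 CPM in the old vehicle libraries. The groups overlapped, and the log2 fold change of -0.42 ± 0.34 SE had a 95% interval of -1.16 to 0.31. Cdkn2a, which encodes p16, had 2 reads in the D+Q libraries together and 5 in the old vehicle libraries together and was not tested. Cdkn2b, the p15 inhibitor next to it, had 0.10 ± 0.24 SE with an interval of -0.42 to 0.62. Of the 18 tested genes 2 were lower in D+Q without overlap, where 1.12% of all tested genes were. Rb1, the retinoblastoma protein that holds cells out of division, was the second of them, after Gadd45a. It had 35.9, 38.5, 27 and 37.1 CPM in the D+Q libraries and 53.8, 53.8, 52.1 and 55.7 CPM in the old vehicle libraries, with D+Q replicate 3 the lowest and a log2 fold change of -0.64 ± 0.17 SE (edgeR unadjusted p = 0.00285). Lamin B1, Lmnb1, whose loss marks senescence, had 5.84 to 8.95 CPM in D+Q against 6.56 to 7.36 CPM in old vehicle and a log2 fold change of 0.0064 ± 0.14 SE. This value changed sign in 11 of the alternative settings, among them the fit without D+Q replicate 1, which gave -0.13. Lysosomal beta-galactosidase, Glb1, had -0.21 ± 0.27 SE with an interval of -0.80 to 0.37.

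Targets of the tumour suppressor p53 lay slightly below 0, with 15 of 24 tested genes negative and a median of -0.020. Of the 24, 1 member had an unadjusted p under 0.05, lower in D+Q, against 1.16% of all tested genes. This was Mdm2, the ubiquitin ligase that degrades p53. It had 80.8 to 97.5 CPM in D+Q against 92.5 to 111 CPM in old vehicle (log2 fold change -0.26 ± 0.09 SE). Eda2r, a TNF family receptor, had 47.5, 62.5, 32.3 and 87.6 CPM in the D+Q libraries and 71.9, 91.9, 72.5 and 92.3 CPM in the old vehicle libraries. D+Q replicate 4 lay within the old vehicle range while the other D+Q libraries were below it, and the log2 fold change was -0.51 ± 0.26 SE with all D+Q libraries and -0.79 without replicate 4. Zmat3, an RNA-binding p53 target, had 22.3 to 27.5 CPM in D+Q against 28 to 29 CPM in old vehicle and a log2 fold change of -0.19 ± 0.10 SE, without overlap. With D+Q replicate 4 left out the list median was -0.11, and 3 members were lower at an unadjusted p under 0.05.

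Secreted factors of senescent cells were split between directions. Of 74 listed factors and receptors 57 were tested, 32 of them positive and 25 negative, with a median of 0.015, and 4 had an unadjusted p under 0.05, where 2.16% of all tested genes did. The median was -0.023 without D+Q replicate 1, -0.0016 without D+Q replicate 2, -0.011 without D+Q replicate 3 and, with old vehicle replicate 2 omitted, -0.028. The inhibitor of metalloproteinases Timp1 had 0.501, 0.898, 0.612 and 0.688 CPM in the D+Q libraries and 1.12, 1.78, 1.11 and 1.77 CPM in the old vehicle libraries. Its groups did not overlap at these low levels, and the log2 fold change was -1.1 ± 0.39 SE. Plau, the urokinase protease, had 22.7 to 25.7 CPM in D+Q against 27.5 to 31.9 CPM in old vehicle with a log2 fold change of -0.28 ± 0.12 SE and no overlap. The chemokine Cxcl1 had 0.0706 to 0.334 CPM in D+Q against 0.136 to 0.587 CPM in old vehicle and -1.25 ± 0.48 SE as its log2 fold change. Interleukin 1 beta, Il1b, went the other way, with 0.518 ± 0.489 CPM in D+Q, against 0.23 ± 0.0357 CPM in old vehicle (SD, n = 4 each) and a log2 fold change of 1.18 ± 0.52 SE. Without D+Q replicate 4, 0 tested factors were higher at an unadjusted p under 0.05. The same held without any 1 of the old vehicle libraries. The chemokine Ccl2 had -0.51 ± 0.55 SE with a 95% interval of -1.7 to 0.68. The cytokine Il6 had 26 reads in D+Q and 17 in old vehicle, and the stress cytokine Gdf15 had 14 in D+Q and 7 in old vehicle, too few to be tested.

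The anti-apoptotic genes of the BCL-2 family, on which senescent cells rely for survival, had a median of 0.015 over 4 genes. Bcl2l1, which encodes BCL-XL, had a log2 fold change of 0.21 ± 0.23 SE with an interval of -0.29 to 0.72. For Bcl2 the value was -0.14 ± 0.18 SE and for Mcl1 0.039 ± 0.23 SE. Among pro-apoptotic members 8 of 10 tested were positive with a median of 0.14, Hrk at 0.56 ± 0.31 SE and Bcl2l11, which encodes BIM, at 0.28 ± 0.18 SE, and none of the 14 tested genes of the family had an unadjusted p under 0.05.

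Dasatinib acts on kinase proteins, and the RNA of its target kinases had fold changes near 0. Of 31 tested kinase genes 21 were positive, 10 were negative and the median was 0.052. None had an unadjusted p under 0.05. Abl1 had 35.9 to 56 CPM in D+Q against 32.6 to 45.8 CPM in old vehicle and a log2 fold change of 0.21 ± 0.21 SE, and Src had 0.071 ± 0.28 SE. Of the receptor kinases, the platelet-derived growth factor receptor gene Pdgfrb had 0.10 ± 0.24 SE, the collagen receptor gene Ddr2 -0.0030 ± 0.15 SE and the ephrin receptor gene Ephb2 0.49 ± 0.25 SE. The intervals for Abl1 and Ephb2 were -0.25 to 0.68 and -0.059 to 1.04.

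Detoxification genes had a median near 0, and the highest values among them came with D+Q replicate 4. Among 21 tested targets of the antioxidant factor NRF2, 11 were positive, 10 were negative and the median was 0.0044, or -0.049 without D+Q replicate 4, -0.016 without D+Q replicate 1 and, with old vehicle replicate 3 omitted, -0.029. Nqo1, a quinone reductase, had 41, 46.4, 48.9 and 62.5 CPM in the D+Q libraries and 39.6, 40.8, 48.4 and 48.3 CPM in the old vehicle libraries and a log2 fold change of 0.17 ± 0.14 SE. Cyp1a1, the cytochrome that the aryl hydrocarbon receptor induces, had 4.13, 4.77, 2.61 and 32.7 CPM in the D+Q libraries and 3.87, 4.71, 3.9 and 3.26 CPM in the old vehicle libraries. The D+Q replicate 4 level was several-fold above the other 7 libraries, and the log2 fold change was 1.49 ± 0.63 SE with it and -0.037 without it. Gsta3, a glutathione transferase, showed the same pattern with 3.37, 1.89, 2.28 and 19.1 CPM in the D+Q libraries and 3.48, 5.54, 2.44 and 1.36 CPM in the old vehicle libraries, and its log2 fold change was 1.05 ± 0.73 SE with and -0.35 without replicate 4. The receptor gene Ahr itself had 3.7, 2.29, 3.58 and 4.57 CPM in the D+Q libraries and 4.9, 5.17, 5.8 and 4.71 CPM in the old vehicle libraries, without overlap, and a log2 fold change of -0.54 ± 0.33 SE. Cyp1b1, another target, had 0.13 ± 0.28 SE with all libraries and -0.17 without D+Q replicate 4.

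Nearly all interferon-stimulated genes had a small negative log2 fold change, and none had an unadjusted p under 0.05. Type I interferon acts through a complex of transcription factors that includes IRF9 and binds the interferon-stimulated response element in front of antiviral genes. Promoters of Ifit1 and Isg15, commonly used as indicators of the pathway, are shown with capitals at the core letters GAAANNGAA, found on either strand and written as TTCNNTTTC where they lie on the opposite one, with overlapping matches joined. The RefSeq windows on GRCm38.p6 are chr19:34640739-34640888 (plus strand) for Ifit1 and chr4:156200819-156200968 (minus strand) for Isg15.
Ifit1: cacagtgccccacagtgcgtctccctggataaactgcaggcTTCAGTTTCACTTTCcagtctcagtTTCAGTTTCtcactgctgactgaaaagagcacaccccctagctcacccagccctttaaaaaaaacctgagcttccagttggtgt
Isg15: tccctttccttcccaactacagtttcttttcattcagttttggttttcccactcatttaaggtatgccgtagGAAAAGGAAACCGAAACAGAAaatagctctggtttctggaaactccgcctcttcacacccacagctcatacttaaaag
Each window held 3 matches, and at least 1 match was found in 13 of the 29 interferon-stimulated genes with a window, against 3.14% of the 10849 tested genes with one. Of 40 tested genes 39 had a negative log2 fold change, where 47% of all tested genes did, and the median was -0.23. The libraries of 1, Mx2, did not overlap, against 1.12% of all tested genes. Members of the list share regulators, so the 40 genes are not separate observations. The mean log2 deviation of the list was 0.11, -0.54, 0.16 and -0.28 in D+Q and 0.44, 0.18, 0.021 and -0.082 in old vehicle. D+Q replicates 2 and 4 were the lowest and old vehicle replicate 1 the highest, and D+Q replicates 1 and 3 lay among the old vehicle libraries. Leaving out D+Q replicate 2 gave 33 negative genes with a median of -0.12, leaving out old vehicle replicate 1 gave 33 with -0.11, and leaving out D+Q replicate 4 gave 36 with -0.23.

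The antiviral GTPase gene Mx2 had 0.931, 0.425, 1.04 and 0.599 CPM in the D+Q libraries and 1.38, 1.24, 1.06 and 1.16 CPM in the old vehicle libraries and a log2 fold change of -0.70 ± 0.36 SE. Ifitm3, a membrane protein that blocks virus entry, had 46.8, 36, 46.8 and 30.4 CPM in the D+Q libraries and 52.1, 55.3, 56.1 and 46.2 CPM in the old vehicle libraries. Old vehicle replicate 4 lay just inside the range of D+Q, and the log2 fold change was -0.39 ± 0.20 SE. The RNA-binding effector Ifit1 had 3.11 ± 1.1 CPM in D+Q, against 4.12 ± 1.59 CPM in old vehicle and the ubiquitin-like modifier Isg15 had 1.61 ± 0.687 CPM in D+Q, against 1.88 ± 0.445 CPM in old vehicle (SD, n = 4 each), with log2 fold changes of -0.41 ± 0.35 SE and -0.23 ± 0.34 SE. All 9 sensors and transcription factors of the pathway were negative with a median of -0.16, with Irf7 at -0.46 ± 0.44 SE. Isg20, an exonuclease gene, was the single positive member at 0.095 ± 0.23 SE.

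Genes of antigen presentation, many of which interferon also induces, had a direction that depended on single libraries. In 23 tested genes 14 were positive, 9 were negative and the median was 0.042. Without D+Q replicate 1, 18 were negative with a median of -0.14, and without D+Q replicate 4, 18 were positive with a median of 0.17. The median was also negative without D+Q replicate 3 (-0.065), old vehicle replicate 2 (-0.027) or old vehicle replicate 4 (-0.019). None had an unadjusted p under 0.05. Class I genes and their peptide loading partners were positive in 12 of 15, H2-K1 at 0.11 ± 0.29 SE and Tap1 at 0.067 ± 0.38 SE. Class II genes were negative in 6 of 8, H2-Aa at -0.18 ± 0.22 SE and their activator Ciita at -0.44 ± 0.41 SE.

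Macrophage markers had a negative log2 fold change for 22 of 26 genes, where 47% of all tested genes did, with a median of -0.13. An unadjusted p under 0.05 was reached by 2 of them, both lower in D+Q, against 1.16% of all tested genes. Cd68, a lysosomal glycoprotein of macrophages, had 2.48, 3.26, 2.82 and 2.22 CPM in the D+Q libraries and 4.28, 4.08, 4.23 and 4.19 CPM in the old vehicle libraries. The old vehicle libraries were close to each other, every D+Q library lay below them, and the log2 fold change was -0.64 ± 0.16 SE (edgeR unadjusted p = 0.00173). Emr1, now named Adgre1 and encoding the F4/80 antigen, had 2.7, 3.81, 4.05 and 3.86 CPM in the D+Q libraries and 7.26, 4.06, 4.36 and 4.67 CPM in the old vehicle libraries, with old vehicle replicate 1 the highest and a log2 fold change of -0.50 ± 0.23 SE. Lgals3, galectin 3, had 9.14, 7.75, 8.26 and 6.41 CPM in the D+Q libraries and 6.53, 13.7, 12.8 and 9.04 CPM in the old vehicle libraries, with overlap and a log2 fold change of -0.41 ± 0.24 SE. The mannose receptor gene Mrc1 had -0.24 ± 0.22 SE, the scavenger receptor gene Cd163 -0.12 ± 0.24 SE and the lysozyme gene Lyz2 -0.048 ± 0.21 SE. Levels of the whole list summed to 153 to 202 CPM in D+Q and 174 to 252 CPM in old vehicle, and no marker was at 0. Once old vehicle replicate 1 was left out, the list had 16 negative genes and a median of -0.040. The part of the macrophage markers in the values of interferon-stimulated genes or secreted factors was not tested.

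Other blood cell markers turned on single libraries. Of 12 neutrophil markers 3 passed the filter, and Mpo had 0 reads in all 8 libraries. S100a9, a calcium-binding protein that neutrophils carry in abundance, had 0.883, 0.52, 0.988 and 11 CPM in the D+Q libraries and 0.224, 0.239, 0.678 and 0.385 CPM in the old vehicle libraries, and S100a8, its partner, had 0.549, 0.236, 0.306 and 6.37 CPM in the D+Q libraries and 0.187, 0.326, 0.488 and 0.159 CPM in the old vehicle libraries. Both were far higher in D+Q replicate 4 than in the other 7 libraries, the log2 fold changes being 3.17 ± 0.92 SE and 2.71 ± 0.96 SE with it and 1.09 and 0.35 without it. Csf3r, the granulocyte colony-stimulating factor receptor, was also highest in that library at 3.86 CPM. Levels of the 12 listed markers summed to 1.70 to 25.9 CPM in D+Q and 1.57 to 2.28 CPM in old vehicle. The part of neutrophil RNA in the other values of D+Q replicate 4 was not tested.

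All 7 tested red cell genes were higher on average in D+Q, with a median of 1.23, and 4 had an unadjusted p under 0.05, where 1% of all tested genes were higher at that level. Hba-a2, an alpha globin, had 1.62, 8.86, 6.0 and 9.25 CPM in the D+Q libraries and 0.935, 1.82, 4.39 and 2.02 CPM in the old vehicle libraries. D+Q replicates 2, 3 and 4 were high, D+Q replicate 1 lay among the old vehicle libraries, and the log2 fold change was 1.5 ± 0.57 SE. The beta globin gene Hbb-bs had 27.3 ± 15.1 CPM in D+Q, against 11.6 ± 8.02 CPM in old vehicle (SD, n = 4 each) with a log2 fold change of 1.23 ± 0.57 SE. Globin genes are near-identical copies, so how reads divide among them is uncertain. The median without D+Q replicate 4 was 0.95 and 0 genes had an unadjusted p under 0.05. That count was also 0 without D+Q replicate 2, old vehicle replicate 1 or old vehicle replicate 2. It was 1 without D+Q replicate 3 or old vehicle replicate 4, and 5 without D+Q replicate 1 or old vehicle replicate 3. The part of red cell genes in other results was not tested. B and plasma cell markers were negative in 7 of 11 tested, or in 4 without old vehicle replicate 2, in 5 without old vehicle replicate 1 and in 5 without D+Q replicate 4. T and NK cell markers were positive in 3 of 4 tested of 18, the T cell receptor gene Trac at 0.59 ± 0.45 SE.

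Collagens and other matrix genes were near 0, and the sign of their median turned without either of 2 libraries. Of 40 tested genes 24 were negative with a median of -0.044, and 17 were negative without D+Q replicate 4, with a median of 0.041. Without old vehicle replicate 4, 18 were negative with a median of 0.016. Col1a1, a chain of type I collagen, had 35.8, 30.3, 33.9 and 11.8 CPM in the D+Q libraries and 24.2, 22.2, 33.8 and 50.1 CPM in the old vehicle libraries, with D+Q replicate 4 the lowest and old vehicle replicate 4 the highest, and a log2 fold change of -0.22 ± 0.33 SE with an interval of -0.94 to 0.50. Col3a1, the type III collagen, had 104, 94.9, 111 and 50.6 CPM in the D+Q libraries and 107, 82.3, 109 and 133 CPM in the old vehicle libraries and a log2 fold change of -0.26 ± 0.21 SE. With D+Q replicate 4 left out, the log2 fold change of Col3a1 was -0.061. Lum, the proteoglycan lumican, had 28.7, 41.7, 38.3 and 31.5 CPM in the D+Q libraries and 56.3, 46.1, 45.6 and 43.6 CPM in the old vehicle libraries. It was the single matrix gene of the 40 whose libraries did not overlap, where 1.12% of all tested genes were lower without overlap. The log2 fold change of Lum was -0.45 ± 0.24 SE. Young muscle had 60.2 ± 14.2 CPM of Col1a1 and 241 ± 27.9 CPM of Col3a1 (SD, n = 4).

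Markers of the other cells of muscle held no member at an unadjusted p under 0.05 in the lists of progenitors, endothelium, pericytes, Schwann cells, tendon and fat. Fibro-adipogenic progenitor markers had 9 of 16 positive and a median of 0.018, with Pdgfra at 0.028 ± 0.15 SE and Cd34 at -0.17 ± 0.09 SE. Endothelial markers had 13 of 20 positive and a median of 0.034, with Pecam1 at 0.029 ± 0.13 SE. For pericyte and smooth muscle markers 11 of 14 were positive with a median of 0.077, and for Schwann cell markers 8 of 16 with a median of 0.058. Tendon cell markers were negative in 9 of 12 with a median of -0.12, and adipocyte markers positive in 11 of 18 with a median of 0.21, Adipoq at 0.20 ± 0.62 SE. Without D+Q replicate 4 the tendon list had 6 negative genes and a median of 0.022, and without D+Q replicate 1 the adipocyte list had 5 positive genes and a median of -0.11. Medians of the progenitor, endothelial and Schwann cell lists turned negative without 1 library too, the progenitors at -0.025 without old vehicle replicate 4, at -0.021 without D+Q replicate 1 and at -0.0041 without old vehicle replicate 2, the endothelium at -0.0072 without D+Q replicate 3 and the Schwann cells at -0.064 without old vehicle replicate 4.

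Satellite cell and myogenic genes held 2 genes at an unadjusted p under 0.05, Myog and Tmem8c, which differentiating and fusing muscle cells express. Both were lower in D+Q, where 1.16% of all tested genes were lower at that level. Pax7, the marker of quiescent satellite cells, had 1.22 to 2.82 CPM in D+Q against 1.33 to 2.28 CPM in old vehicle and a log2 fold change of 0.14 ± 0.32 SE. Tmem8c, now named Mymk and encoding the fusion protein myomaker, had 0.191, 0.638, 0.40 and 0.111 CPM in the D+Q libraries and 0.86, 2.28, 0.894 and 0.816 CPM in the old vehicle libraries. Its groups did not overlap at these low levels, and the log2 fold change was -1.85 ± 0.60 SE. Gm7325, now named Mymx and encoding the fusion partner myomixer, had -1.43 ± 0.66 SE (edgeR unadjusted p = 0.0501). The median of the 23 genes was -0.017, or 0.051 without D+Q replicate 4 and, with old vehicle replicate 4 omitted, 0.017.

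Slow fibre genes had the highest positive median of the muscle lists, and the libraries of both groups were widely spread. Of 15 genes 12 were positive with a median of 0.43, and none had an unadjusted p under 0.05. Myh7, the slow myosin heavy chain, had 382, 799, 1155 and 473 CPM in the D+Q libraries and 224, 280.2, 877 and 365 CPM in the old vehicle libraries. D+Q replicate 3 and old vehicle replicate 3 were each the highest of their group, and the log2 fold change was 0.69 ± 0.47 SE with an interval of -0.33 to 1.7. Atp2a2, the slow fibre calcium pump, had 461, 1173, 1359.9 and 1055 CPM in the D+Q libraries and 503, 672, 1005 and 587 CPM in the old vehicle libraries and a log2 fold change of 0.55 ± 0.29 SE. The mean log2 deviation of the list was -0.51, 0.39, 0.87 and -0.087 in D+Q and -0.66, -0.36, 0.60 and -0.25 in old vehicle. The median was 0.17 when D+Q replicate 3 was left out and 0.86 when old vehicle replicate 3 was. Fast fibre genes were positive in 13 of 17 with a median of 0.090, the fast 2B myosin gene Myh4 at 0.22 ± 0.16 SE and the 2X myosin gene Myh1 at -0.19 ± 0.11 SE.

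Energy metabolism lists had medians close to 0, and the sign of each turned without 1 library or another. Nuclear-encoded respiratory chain genes had 17 of 40 positive with a median of -0.0048 and log2 fold changes between -0.13 and 0.28. Glycolysis and glycogen genes were positive in 18 of 24 with a median of 0.051, and fatty acid uptake and oxidation genes in 21 of 25 with a median of 0.080, or in 14 of those 25 without D+Q replicate 4. Without old vehicle replicate 2, 10 fatty acid genes were positive and the median was -0.023. The glycolysis median was -0.035 without D+Q replicate 1 and 0.17 without D+Q replicate 4. The respiratory chain median was 0.011 without D+Q replicate 1, 0.0033 without D+Q replicate 4 and, with old vehicle replicate 3 omitted, 0.0041. Pfkfb3, which makes the activator of phosphofructokinase, was the single gene of these lists at an unadjusted p under 0.05, against 2.16% of tested genes. It had 188, 269, 182 and 353 CPM in the D+Q libraries and 75.5, 127, 169 and 126 CPM in the old vehicle libraries. Its groups did not overlap, with old vehicle replicate 3 close to D+Q replicates 1 and 3, the log2 fold change was 0.99 ± 0.26 SE (edgeR unadjusted p = 0.00233), and young muscle had 281 ± 58.2 CPM (SD, n = 4). Lipoprotein lipase, Lpl, had 1002 to 2486 CPM in D+Q against 1122 to 1504 CPM in old vehicle and 0.26 ± 0.22 SE. Its log2 fold change was -0.050 without D+Q replicate 4. Regulators of mitochondria had a median of -0.031, or 0.024 without D+Q replicate 3, 0.015 without D+Q replicate 1 and, with old vehicle replicate 4 omitted, 0.013, with the nuclear receptor gene Ppara at 0.55 ± 0.26 SE and the coactivator gene Ppargc1a at -0.10 ± 0.28 SE.

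Atrophy genes had 2 members higher and 1 lower at an unadjusted p under 0.05 among 30, where 1% of all tested genes were higher and 1.16% lower at that level, and a median of 0.040. Klf15, a transcription factor that glucocorticoids induce, had 47, 37.2, 36.2 and 33.6 CPM in the D+Q libraries and 22.9, 20.9, 33.9 and 30.5 CPM in the old vehicle libraries, with old vehicle replicate 3 inside the range of D+Q by a small margin and a log2 fold change of 0.51 ± 0.21 SE. Fbxo32, which encodes the ubiquitin ligase atrogin-1, had 626, 658, 632 and 1447 CPM in the D+Q libraries and 505, 420.0, 503 and 651 CPM in the old vehicle libraries. The level of D+Q replicate 4 was the highest of the 8, and the log2 fold change was 0.69 ± 0.29 SE with it and 0.30 without it. The other muscle ligase, Trim63, had -0.058 ± 0.35 SE, and myostatin, Mstn, had 0.39 ± 0.26 SE with all libraries and 0.052 without D+Q replicate 4. The member lower in D+Q was Mdm2.

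Heat shock and chaperone genes had a negative log2 fold change for 26 of 31, with a median of -0.10 and log2 fold changes between -0.51 and 0.12. Hspb8, a small heat shock protein that works with Bag3 in clearing damaged sarcomere proteins, had 804, 719, 622 and 481 CPM in the D+Q libraries and 797, 1080.0, 889 and 964 CPM in the old vehicle libraries. D+Q replicate 1 lay just above old vehicle replicate 1, so the groups overlapped by that pair, and the log2 fold change was -0.51 ± 0.15 SE (edgeR unadjusted p = 0.0045). Young muscle had 427 ± 22.2 CPM of Hspb8 (SD, n = 4). Hspa2, a relative of HSP70, did not overlap and had -0.19 ± 0.13 SE, and Hsp90aa1 had -0.30 ± 0.34 SE. Without D+Q replicate 4 the list had 23 negative genes and a median of -0.13.

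Cell division genes were negative in 21 of 26 tested with a median of -0.13 and low levels throughout. Rrm2, a subunit of ribonucleotide reductase, had 0.945 to 1.22 CPM in D+Q against 1.19 to 2.0 CPM in old vehicle and a log2 fold change of -0.49 ± 0.21 SE, and cyclin A2, Ccna2, had 0.311 to 0.449 CPM in D+Q against 0.515 to 0.804 CPM in old vehicle and -0.77 ± 0.35 SE without overlap. Mki67, the proliferation marker, had 0.31, 1.18, 0.659 and 0.244 CPM in the D+Q libraries and 1.35, 1.52, 0.759 and 1.27 CPM in the old vehicle libraries and a log2 fold change of -1.04 ± 0.49 SE. Without D+Q replicate 4 the list had 14 negative genes and a median of -0.027. Circadian clock genes had 12 of 19 positive with a median of 0.057. Their log2 fold changes lay between -1.21 and 0.99, and the period gene Per2 was negative at -0.43. Npas2, a partner of BMAL1, had 3.15 to 3.72 CPM in D+Q against 1.87 to 3.13 CPM in old vehicle without overlap (0.37 ± 0.17 SE), and Per1, a period gene that glucocorticoids also induce, had 59.8, 77.1, 78.1 and 39.3 CPM in the D+Q libraries and 18.3, 24.5, 34.9 and 50.5 CPM in the old vehicle libraries (0.99 ± 0.46 SE). Immediate early genes had a median of 0.0012, or -0.25 without old vehicle replicate 3, -0.11 without D+Q replicate 2 and -0.038 without D+Q replicate 1, with wide spread, Egr1 from 3.33 to 67.3 CPM within D+Q and from 14.0 to 94.9 CPM within old vehicle.

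**Figure D3:**
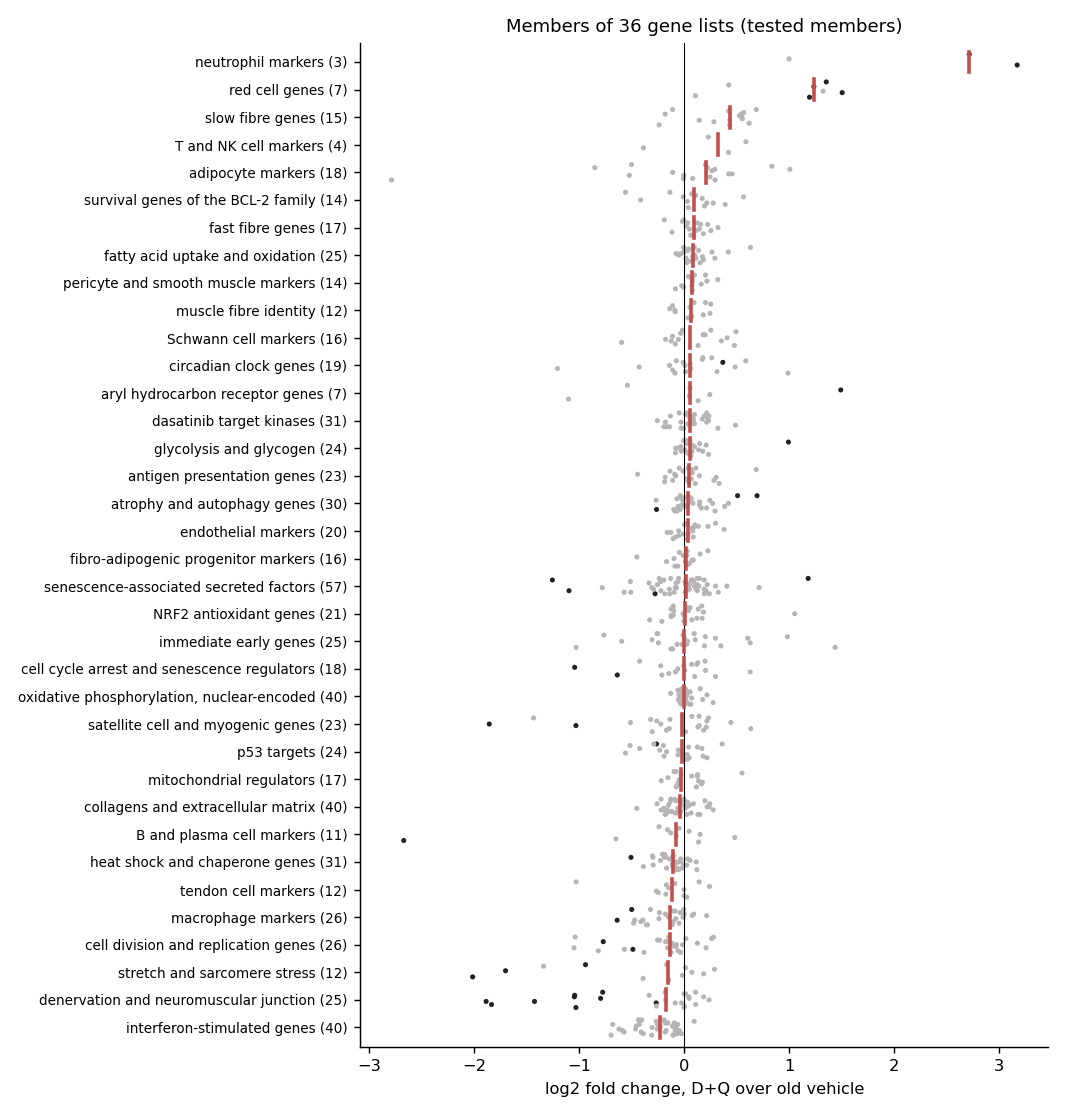
Log2 fold changes of D+Q over old vehicle (horizontal axis) for the tested members of each of the 36 gene lists (rows), each point a gene, with the list median marked. Medians lie between -0.23 for interferon-stimulated genes and 2.71 for the 3 tested neutrophil markers, and most are within 0.10 of 0.

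Beyond Pla2g5, Plekhf1 and Kcnf1, the genes highest in D+Q without overlap included Arrdc2, Klhl38, Pfkfb3, Pla2g7, Atp1a4 and Mcf2l. Arrdc2, an arrestin domain protein, had 36.7, 30.2, 44.6 and 58.9 CPM in the D+Q libraries and 8.49, 7.86, 19.6 and 17.2 CPM in the old vehicle libraries. The lowest D+Q library was above the highest old vehicle library, and the mean was 3.21-fold higher (log2 fold change 1.68 ± 0.50 SE, edgeR unadjusted p = 0.00534), while the young libraries ranged more widely, at 31.3 ± 24.6 CPM (SD, n = 4). Klhl38, a kelch protein of muscle, had 93.1, 78.4, 74.7 and 93.2 CPM in the D+Q libraries and 36.5, 33.1, 65.9 and 65.8 CPM in the old vehicle libraries and a log2 fold change of 0.75 ± 0.26 SE. Pla2g7, which inactivates platelet-activating factor, had 83.5, 68.8, 103 and 148 CPM in the D+Q libraries and 59.9, 61.1, 64.9 and 67.2 CPM in the old vehicle libraries and a log2 fold change of 0.67 ± 0.22 SE, or 0.43 without D+Q replicate 4. Atp1a4, a sodium pump subunit, and Mcf2l, a guanine nucleotide exchange factor, had 0.51 ± 0.17 SE and 0.49 ± 0.20 SE.

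**Figure D4:**
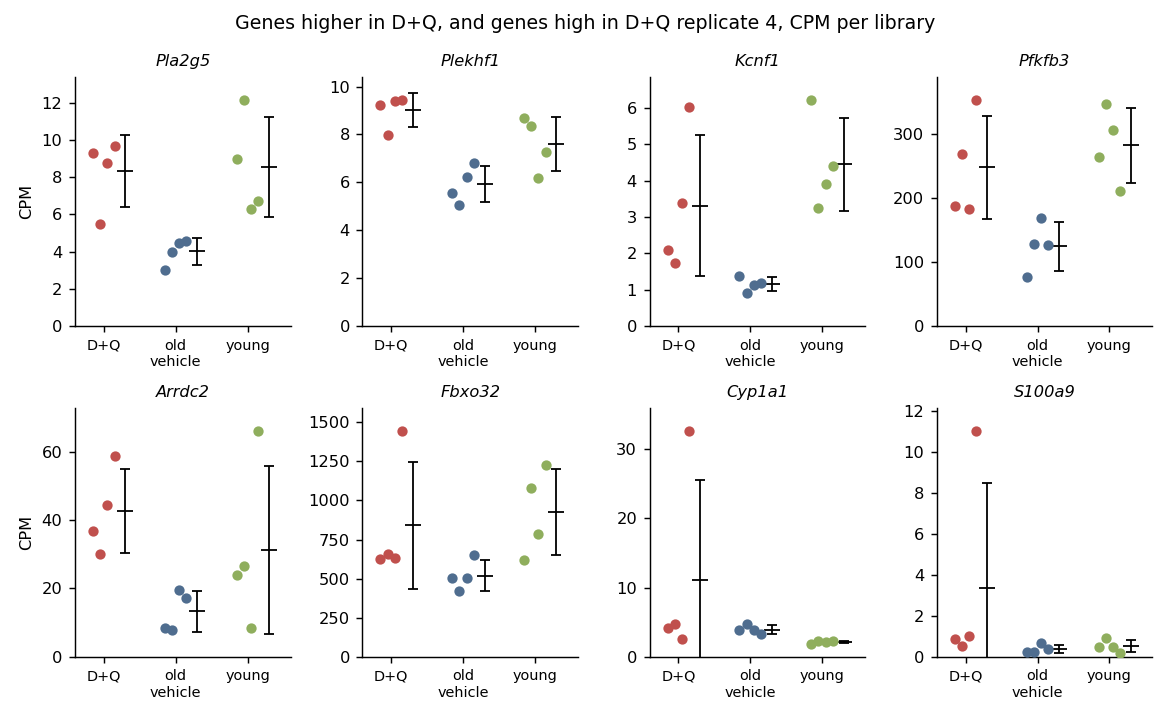
CPM on a linear axis in each of the 4 D+Q, 4 old vehicle and 4 young libraries for genes that were higher in D+Q, with 1 panel per gene, points for libraries and bars for the mean ± SD, cut at 0 where the SD is larger than the mean. Pla2g5, Plekhf1, Pfkfb3 and Arrdc2 have every D+Q point above every old vehicle point, whereas Cyp1a1 and S100a9 have their highest point in D+Q replicate 4.

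The remaining genes with the smallest p-values or the largest lower values were Plekhh1, Id2, Ankrd10, Aif1l, Abhd17c, Rap1gap2, St8sia4 and Hpgd. Id2, an inhibitor of basic helix-loop-helix factors, had 3.27, 4.33, 4.35 and 3.82 CPM in the D+Q libraries and 7.09, 8.21, 4.66 and 7.68 CPM in the old vehicle libraries and a log2 fold change of -0.81 ± 0.20 SE. Plekhh1 had 7.16, 6.5, 3.76 and 3.42 CPM in the D+Q libraries and 9.27, 15.4, 8.32 and 11.8 CPM in the old vehicle libraries and -1.11 ± 0.27 SE as its log2 fold change, both without overlap. Aif1l, related to the actin-binding protein Aif1, had 34.4, 27, 19.4 and 10.2 CPM in the D+Q libraries and 52.2, 111, 50.7 and 33.6 CPM in the old vehicle libraries. D+Q replicate 1 lay just above old vehicle replicate 4, and the log2 fold change was -1.45 ± 0.38 SE. Hpgd, which degrades prostaglandins, had a log2 fold change of -0.82 ± 0.24 SE, the sialyltransferase gene St8sia4 -0.83 ± 0.30 SE, Rap1gap2 -0.91 ± 0.25 SE, Abhd17c -0.46 ± 0.12 SE and Ankrd10 -0.40 ± 0.10 SE.

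**Figure D5:**
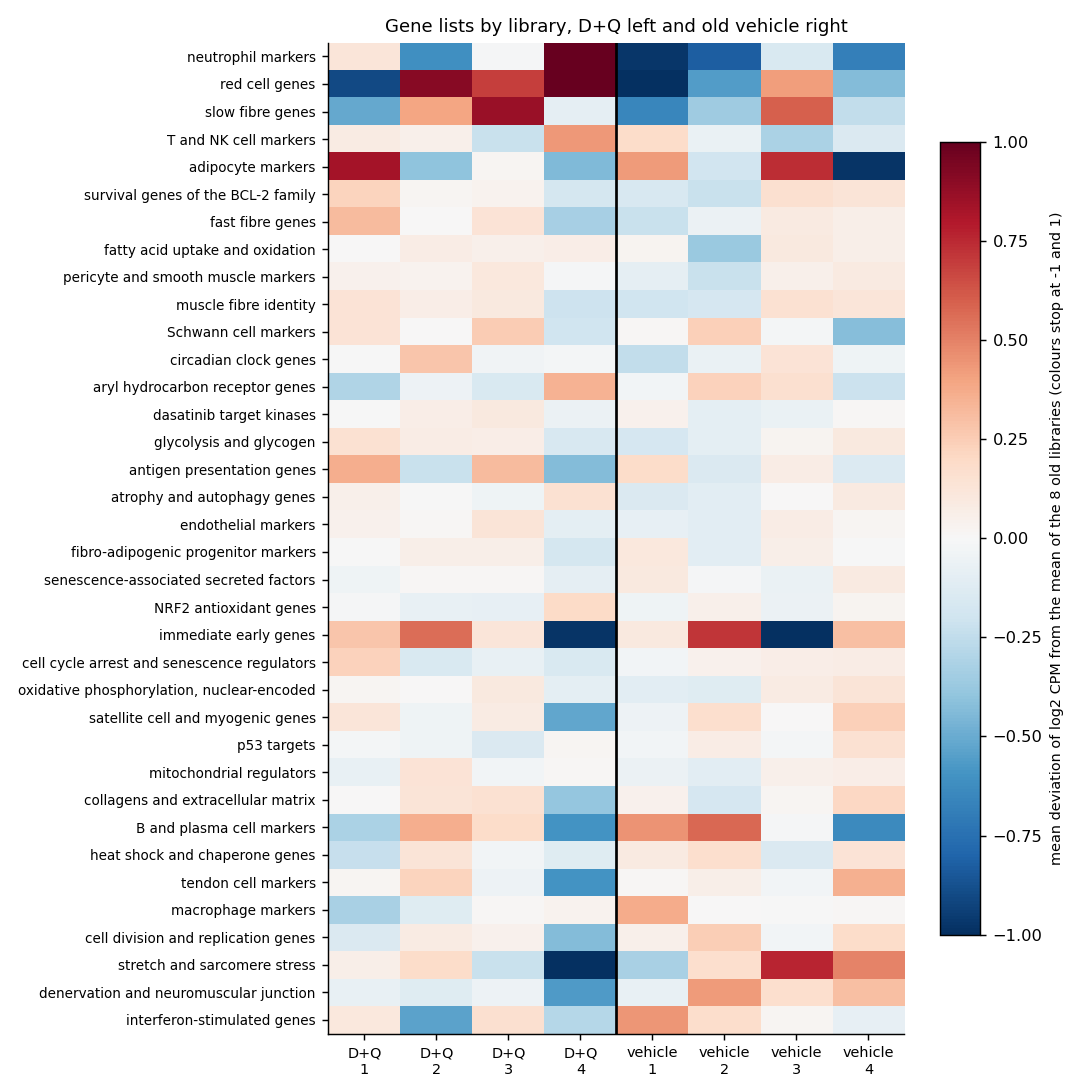
Mean log2 deviation of each gene list (rows) from the average of the 8 old libraries, by library (columns, D+Q replicates 1 to 4 and then old vehicle replicates 1 to 4), as a colour scale. D+Q replicate 4 has the lowest values for denervation genes (-0.57) and stretch genes (-1.12) and the highest for neutrophil markers (3.13).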

How the data were processed

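Quadriceps RNA was sequenced from stranded libraries, per the labels' protocols. Per the submitters' processing notes, STAR 2.6.1c, Subread, featureCounts 1.5.1 and the build mm10 were used. What each tool did, the strand setting and the release of the annotation are not given in these sources. For each gene the authors deposited a whole-number read count, on which all tests were run, and an RPKM value (reads scaled to library size and gene length) with its position. Each deposited RPKM column was proportional to counts over length in 1 library of its group, the coefficient of variation being 0.0742% or less, and RPKM was not tested. In the deposited files 27 symbols had been turned into dates, and 37 mitochondrial genes had 0 reads. Between libraries of the same group the chi-square of the counts was 19.7 to 235 per gene, so no library was counted as a duplicate. Old vehicle replicates 1 and 2 (19.7) and replicates 3 and 4 (23.7) were closer to each other than the remaining old vehicle pairs (61.1 to 66.1). Whether these libraries are related was not tested.

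Libraries were grouped by their labels. Genes were kept by filterByExpr (minimum count 10, minimum total 15) and scaled by TMM in edgeR 4.0.16 under R 4.3.3. All 12 libraries entered 1 quasi-likelihood fit with a mean per group, the contrast was D+Q minus old vehicle, and genes were called at an adjusted p under 0.05. Standard errors are the fold change divided by the square root of the F statistic, and intervals are at 95%. The analysis was tested on simulated data. DESeq2 1.42.0 and limma-voom (limma 3.58.1) were alternatives to the main test. Other edgeR fits used RLE or upper-quartile scaling, a minimum count of 50, no filter, robust shrinkage, the 8 old libraries alone or a replicate block. A call at 0.1 and omission of each library in turn were the further alternatives. Plain library totals, without scaling factors, were used only to count genes without overlap. Same-numbered D+Q and old vehicle libraries had deviations correlated at -0.303, 0.196, 0.251 and -0.337, and the libraries were treated as unpaired. Correlations between libraries with different numbers were not computed, so these values cannot decide whether the numbers pair them.

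The comparison and the 36 gene lists were chosen with earlier results of these data known. Lists are therefore described by counts and medians without a test. All 793 list genes were found, 8 through their identifier under an older symbol, and 728 were tested. Named genes were the 20 with the smallest p at a mean log2 CPM of at least 1, the DESeq2 calls, the 10 highest and 10 lowest fold changes at an unadjusted p under 0.05 without overlap, up to 3 genes per list by p, and a set of fixed genes. Predicted genes, Riken clones and pseudogenes were left out. Other list members are named for their known role. A few genes that meet these rules are not reported here. Promoters came from RefSeq on GRCm38.p6. A limit of 3 reads covers counting error only.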

Additional observations from a re-analysis of the deposited data

Results flagged for a closer look

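In 17 of the 294 groups of 4 libraries examined for the named genes, 1 library lay far from the other 3 of its group. Chance alone marks about 1 in 20 such groups, and no explanation was tested.

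Of the 17, 7 concerned D+Q replicate 4, which was the highest D+Q library for each of them. They were the neutrophil genes S100a9 at 11 CPM, S100a8 at 6.37 CPM and Csf3r at 3.86 CPM, the detoxification genes Cyp1a1 at 32.7 CPM and Gsta3 at 19.1 CPM, and the atrophy genes Fbxo32 at 1447 CPM and Mstn at 111 CPM. The other D+Q libraries had at most 0.988 CPM of S100a9, 4.77 CPM of Cyp1a1 and 658 CPM of Fbxo32.

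D+Q replicate 1 stood apart for Egr1, an immediate early gene, at 67.3 CPM, and for Ucp1, the uncoupling protein of brown fat, at 3.58 CPM, both above the other D+Q libraries. In D+Q replicate 2 the clock gene Per2 was high at 9.12 CPM, and Plekhf1 was low at 7.97 CPM.

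Among old vehicle libraries, replicate 1 was low for Ankrd10 at 31.2 CPM and for the myosin gene Myh4 at 26639 CPM. Replicate 2 was high for Chrna1 at 81.4 CPM and for Tmem8c at 2.28 CPM. Replicate 3 was high for the pro-apoptotic gene Hrk at 0.949 CPM and low for the endothelial gene Ets1 at 34 CPM.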

How the results depend on the processing

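The count of called genes was 0 in every edgeR setting, in limma-voom, at a threshold of 0.1 and in every fit without 1 library, and 11 in DESeq2, which was not repeated with a library left out. The 349 genes at an unadjusted p under 0.05 became 229 with a minimum count of 50 and 652 with no filter, and 233 to 467 without 1 library. The genes without overlap were 293 lower and 98 higher in D+Q with plain library totals. The replicate block gave 0 called genes and 267 at an unadjusted p under 0.05. Of 147 named tested genes 132 kept their sign in all 21 alternatives and 15 did not. For Lmnb1 the log2 fold change was -0.00472 in DESeq2, -0.00364 with RLE scaling, -0.0148 in limma-voom, -0.00293 with a minimum count of 50, -0.00874 with no filter and -0.00565 with the replicate block. Without 1 library it ran -0.13 to 0.088. Signs of the other 14 turned in fits without 1 library alone, where log2 fold changes ran -0.35 to 1.45 for Gsta3, -0.037 to 1.82 for Cyp1a1, -0.050 to 0.43 for Lpl, -0.033 to 0.45 for Ckm, -0.014 to 0.25 for Cdkn2b, -0.23 to 0.0062 for Bcl2, -0.10 to 0.15 for Mcl1, -0.081 to 0.26 for Src, -0.028 to 0.22 for Pdgfrb, -0.078 to 0.088 for Ddr2, -0.37 to 0.054 for Col1a1, -0.083 to 0.32 for Pax7, -0.017 to 0.28 for Myh2 and -0.17 to 0.28 for Cyp1b1. The cause was not tested. Of the 36 list medians, 16 kept 1 sign in every fit without 1 library, among them those of denervation, interferon-stimulated, macrophage and heat shock genes. They also included the neutrophil median, which fell from 2.71 to 0.35 without D+Q replicate 4, and the dasatinib target median of 0.052. Keeping 1 sign therefore does not show that a median is large or free of a single library. The neutrophil median could not be computed with a minimum count of 50. With 4 libraries a group, intervals of genes such as Cdkn1a allow changes in either direction, and Cdkn2a, Il6 and Gdf15 were too low to be tested.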

Other observations

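Developmental myosins, which regenerating fibres express, did not follow the negative values of Myog. Myh3, the embryonic heavy chain, had a log2 fold change of 0.63 ± 0.36 SE and Myh8, the perinatal chain, 0.44 ± 0.23 SE. The myogenic factors Myod1 and Myf6 had -0.30 ± 0.31 SE and -0.32 ± 0.15 SE.

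The orphan nuclear receptors Nr4a1 and Nr4a3, which exercise induces in muscle, had log2 fold changes of 0.63 ± 0.42 SE and 1.44 ± 1.37 SE. Nr4a1 had 227, 305, 234 and 94.7 CPM in the D+Q libraries and 116, 195, 75.2 and 170.3 CPM in the old vehicle libraries, so D+Q replicate 4 was below 3 of the old vehicle libraries while the other D+Q libraries were above all of them. Ucp1 had 3.58, 0.284, 0.118 and 0.0444 CPM in the D+Q libraries and 18.9, 1.04, 7.43 and 0.181 CPM in the old vehicle libraries and -2.78 ± 1.71 SE, the lowest log2 fold change of all tested genes, with an interval of -6.49 to 0.92 and 14.6 ± 22.1 CPM in young muscle (SD, n = 4).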
